A study of Mus musculus with 10 samples.

Results

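The TGF-β signalling genes described here are 9 named genes, Tgfb1, Nrros, Tgfbr1, Tgfbr2, Smad2, Smad3, Smad4, Smad7 and Ski. They were taken by name from the 31053 genes of the count matrix, by a rule that sets no threshold on a measured value, and all 9 were counted in every library. They were followed through single-cell RNA-seq of CD45+ immune cells sorted from whole brain. The study asked whether Nlrp3, the sensor of an inflammasome, shapes the microglial response to amyloid. It compared wild-type mice (WT), mice lacking Nlrp3 (Nlrp3KO), mice carrying the APP/PS1 amyloid transgenes (APP/PS1) and mice with both alterations (Nlrp3KO APP/PS1). WT and Nlrp3KO mice were taken at 3, 6 and 9 months of age, and both APP/PS1 groups at 3 and 9 months. The mice were littermates, the Nlrp3 loss was constitutive and in every cell, and each of the 10 libraries was made from the pooled brains of 3 mice of one genotype and age, so each group has 1 library. Tissue was dissociated with actinomycin D, an inhibitor of transcription. All values below are CPM, the unique molecular identifiers (UMIs) of a gene scaled to the total UMIs of the same cells.

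TGF-β1 is secreted in a latent form, held in a complex with a milieu molecule, and has to be released before it can bind. In microglia that milieu molecule is the product of Nrros (also called LRRC33). The released ligand binds TGFBR2, which phosphorylates TGFBR1, and TGFBR1 phosphorylates SMAD2 and SMAD3. These pair with SMAD4 and enter the nucleus, while SMAD7 blocks the receptor and SKI represses the Smad complex at its target genes. The pathway is known for keeping microglia in their homeostatic state, with genes such as P2ry12, Tmem119 and Sall1 depending on it.

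By the GENCODE annotation of GRCm38, the build the count files use under the name mm10, Tgfb1 lies at chr7:25687002-25705077 on the plus strand, Tgfbr1 at chr4:47353222-47414931 on the plus strand, Tgfbr2 at chr9:116084293-116175360 on the minus strand and Smad3 at chr9:63646767-63757994 on the minus strand. Ski lies at chr4:155154075-155222592 and Nrros at chr16:32142785-32165594, both on the minus strand. All are protein-coding.

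RefSeq (GRCm38.p6) gave promoter windows for 6 of the 9 genes, 7 windows in all, because Tgfbr1 has 2 annotated starts. The 250 bases before the start are printed, 5′ to 3′ on the gene's strand. They are given for the 4 of these genes that passed the test between 9 and 3 months, all lower at 9. Smad2 and Smad4 also passed but, like Smad7, had no window. For Tgfbr1 the window is that of the upstream start. They were searched on both strands for CAGACA, the Smad-binding element, and for GAGGAA, the core of the sequence bound by the myeloid factor PU.1, and matches are in capitals. The windows are chr7:25686752-25687001, chr4:47352972-47353221, chr9:116175364-116175613 and chr9:63757995-63758244, in the order printed.
Tgfb1: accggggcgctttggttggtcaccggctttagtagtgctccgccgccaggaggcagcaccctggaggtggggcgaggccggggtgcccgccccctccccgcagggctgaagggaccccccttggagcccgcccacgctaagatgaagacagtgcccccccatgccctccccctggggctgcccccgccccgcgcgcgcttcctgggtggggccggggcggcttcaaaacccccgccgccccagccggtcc
Tgfbr1: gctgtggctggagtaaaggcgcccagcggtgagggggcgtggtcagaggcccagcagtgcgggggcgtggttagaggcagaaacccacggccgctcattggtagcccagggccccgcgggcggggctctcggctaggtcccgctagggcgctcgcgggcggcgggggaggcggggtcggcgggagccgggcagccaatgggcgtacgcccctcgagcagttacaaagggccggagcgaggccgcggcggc
Tgfbr2: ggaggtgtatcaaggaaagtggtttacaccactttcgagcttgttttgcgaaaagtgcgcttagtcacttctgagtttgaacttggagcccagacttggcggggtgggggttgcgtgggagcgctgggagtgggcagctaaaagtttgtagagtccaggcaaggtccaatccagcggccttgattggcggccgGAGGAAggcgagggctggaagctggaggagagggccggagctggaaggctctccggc
Smad3: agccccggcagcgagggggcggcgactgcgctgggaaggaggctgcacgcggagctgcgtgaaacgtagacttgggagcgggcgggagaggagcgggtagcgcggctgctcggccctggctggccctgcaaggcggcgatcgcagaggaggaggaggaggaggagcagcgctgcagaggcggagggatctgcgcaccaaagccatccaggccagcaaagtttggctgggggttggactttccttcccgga
The single capital stretch is a GAGGAA in the Tgfbr2 window. Over all 32817 mouse promoter windows of this length, 23.3% held GAGGAA and 17.1% held CAGACA, against 2 and 1 of the 7 windows of these genes. The window of the second Tgfbr1 start held 1 match to each. Counts from the 3′ end of transcripts do not tell which start was used, and a match is a description of letters, not a bound site.

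The matrix held 52369 cells, of which 45472 belonged to the 10 labelled libraries, 40547 microglia and 4925 other CD45+ cells. Each library gave 1755 to 8208 microglia with a median of 3978 to 5985 UMIs per cell. Nlrp3 itself was at 0 UMIs in all 5 Nlrp3KO libraries and between 34.4 and 53.7 CPM in the 5 with intact Nlrp3. The microglial markers summed to between 16495 and 19928 CPM in the microglia per library. Of the marker lists of other cells, those of astrocytes summed to 175 to 219 CPM there, oligodendrocytes to 51.5 to 64.8, ILC2 to 32.9 to 68.7, B cells to 32.6 to 52.3, endothelial cells to 23.2 to 31.9 and neutrophils to 0.387 to 43.0. The remaining lists, border macrophages, monocytes, T, NK and dendritic cells, neurons and red blood cells, reached at most 19.0 CPM. The 3 batches each held 1 age. One library stood apart. In the microglia of WT mice of 9 months, 239 of 8250 genes were over 1.5 times below the lowest other library, against 0 to 4 genes in each other library, and Smad7 was one of the 239. Smad7 values that it changes are given with and without it. There were 246 barcodes found in more than 1 library, and 7.63% of microglia had a doublet score over 0.5.

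The ligand gene Tgfb1 was higher in microglia than in any other cell type measured in at least 3 libraries. Its median over the 10 libraries was 370.3 CPM in microglia (range 312 to 452). It was 271 CPM in conventional dendritic cells of type 2 (cDC2, 3 libraries, 172 to 318), 228 in B cells (8 libraries, 129 to 294) and 228 in Lyve1+ border-associated macrophages (BAM Lyve1, 9 libraries, 146 to 300.4). The ranges of these 3 types overlapped one another and, for the dendritic cells alone, reached into that of microglia. T cells were at the low end, with a median of 100.3 CPM (10 libraries, 73.6 to 130.1). A pair of rarer populations came close to microglia over their summed cells, non-classical monocytes with 377 CPM (95% Poisson interval 338 to 420.4, 138 cells) and classical monocytes with 345 (318 to 374, 149 cells). Microglia summed in the same way had 402 CPM (399 to 405). Intervals of this kind cover counting error only.

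Nrros, the gene of the milieu molecule, had another order. It was highest in BAM Lyve1, with a median of 294 CPM (9 libraries, 192 to 334), above microglia in 9 of 9 libraries by 1.16 ± 0.29 on the log2 scale (SD). Microglia had a median of 130.2 CPM (121 to 146), within the ranges of BAM (154, 110.1 to 187) and of cDC2 (150.2, 92.7 to 173). B cells followed with 67.5 CPM (37.1 to 117). NK cells (26.1) and T cells (24.4) were lowest, and their ranges overlapped.

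Both receptor genes had high levels in microglia. Tgfbr1, the signalling kinase receptor, had a median of 1039 CPM in microglia (866 to 1225), and no other type came near. It was 335 CPM in BAM (245 to 374), 148 in BAM Lyve1 (64.1 to 268), 133 in NK cells (69.5 to 179) and 31.9 in T cells (21.9 to 179), all with microglia higher in every library. In BAM the difference was -1.73 ± 0.30 on the log2 scale (SD, n = 10). In T cells it was -4.50 ± 0.91. Microglial marker genes were read at 3.59% to 4.67% of their microglial level in T cells, 6.61% to 7.52% in B cells and 7.14% to 9.00% in NK cells, although these types should lack them. Tgfbr1 stood at 5.70%, 9.78% and 9.84% of its own microglial level, little above that background, so its levels in these 3 types cannot be read as expression. In BAM Lyve1 the markers were at 5.78% to 82.5% and Tgfbr1, at 14.1%, lay inside that range, while in BAM it stood at 28.3%, above 3.74% to 22.7%. In NKT cells it stood at 2.92%, above a marker background of 0.161% to 0.867%. When high doublet scores (over 0.5) were left out, Tgfbr1 over all non-microglial cells was 86.4 CPM in place of 127. Tgfbr2, the ligand-binding receptor, had overlapping ranges in BAM Lyve1 (328 CPM, 249 to 425) and microglia (289, 273 to 366), with a difference of 0.04 ± 0.21 on the log2 scale over 9 libraries, in 6 of which microglia were the higher. BAM were lower at 173 CPM (116 to 218), and T cells (103, 60.1 to 156) and NK cells (98.3, 63.2 to 191) lower again and overlapping each other.

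Smad2 and Smad4 lie on chromosome 18, at 76241580 to 76310963 on the plus strand and 73639009 to 73703780 on the minus strand, and both are protein-coding. Their levels were similar across cell types. For Smad4 the medians ran from 25.4 CPM in NKT cells (3 libraries, 19.3 to 80.4) to 58.6 in microglia (32.4 to 66.8), and for Smad2 from 25.4 in NKT cells to 44.5 in microglia. All neighbouring types overlapped. The medians of NKT cells and microglia came from different sets of libraries, so the gap between them cannot by itself be read as a difference between the types. Within the 3 libraries measured for NKT cells, their mean log2 ratio to microglia was 0.015 ± 0.57 (SD) for Smad4. For Smad2 it was 0.006 ± 0.23. For each gene NKT cells were the lower in 2 of these 3 libraries. Over summed cells, which also mix libraries, NKT cells had 33.4 CPM for Smad4 and 30.8 for Smad2. These were 58.8% and 70.6% of the microglial level. The ratios hold a prior count of 2, which weighs on low counts, so they cannot decide whether the types differ. Smad3 was more selective. Its median was 38.1 CPM in microglia (30.9 to 46.2), 29.8 in NK cells (24.6 to 57.3), 19.7 in T cells (11.9 to 25.7), 12.5 in BAM (4.51 to 23.8) and 5.34 in B cells (0 to 17.2). Microglia were above BAM, T cells and B cells in every library, and above NK cells in 5 of 7.

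The inhibitor gene Smad7 (chromosome 18, 75367529 to 75395935, plus strand, protein-coding) was highest in microglia and then in T and NK lineages. Its median was 247 CPM in microglia (87.7 to 296), 153 in NKT cells (145 to 171), 134.5 in T cells (25.1 to 160.5) and 110.3 in NK cells (88.6 to 134). Border macrophages were at the other end, with 46.5 CPM in BAM (8.48 to 62.3) and 16.4 in BAM Lyve1 (0 to 35.2). Over summed cells these were 18.2% and 6.95% of the microglial level. Both lay inside the marker ranges given for Tgfbr1, whose medians were 9.18% and 10.3%. In BAM Lyve1 that range is too wide to set a background. Tgfb1 (54.7%) and Ski (47.3%), among others, also lay inside it there. By these ranges, expression and background of Smad7 cannot be told apart in either type. The lowest values in microglia, T cells and BAM all came from the WT library of 9 months. Without it the ranges were 229.7 to 296 CPM in microglia, 89.1 to 160.5 in T cells and 32.7 to 62.3 in BAM, and the order of these types was the same. The co-repressor gene Ski was at 237 CPM in microglia (209 to 253), 119 in BAM Lyve1 (64.1 to 142), 102 in BAM (68.6 to 142) and 62.6 in T cells (45.1 to 85.3). Its microglial range touched none of the others.

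**Figure D1:**
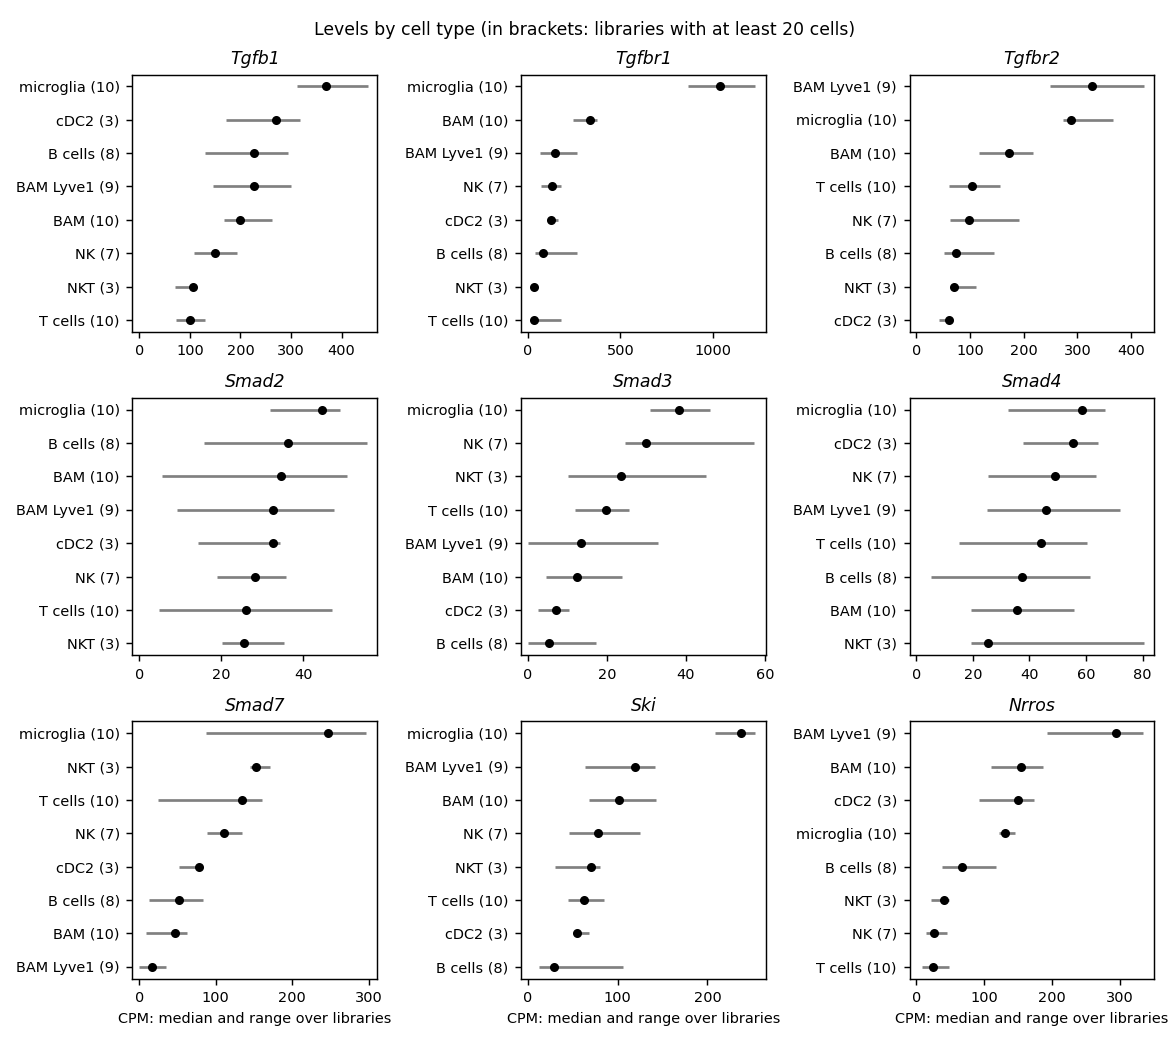
CPM of each gene by cell type as the authors annotated it, with the median (point) and range (line) over the libraries that held at least 20 cells of the type, whose number is in brackets. Microglia have the highest median for Tgfb1, Tgfbr1, Smad2, Smad3, Smad4, Smad7 and Ski, and BAM Lyve1 for Nrros (294 CPM), while for Tgfbr2 the ranges of microglia and BAM Lyve1 overlap. The microglial range overlaps that of some other type for every gene but Tgfbr1 and Ski. For Smad7 it does so only through the WT library of 9 months. Without that library it is 229.7 to 296 CPM, against at most 171 in NKT cells, the next highest type.

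The genes with the most similar profiles were sought among 11028 genes over 20 cell types and states, on log2(CPM + 1) with libraries summed. Cell types here share libraries and differ in depth, so the values are descriptions. Among the closest to Tgfbr1 were Epb41l2 (Pearson r = 0.97) and Abhd12 (0.97). Nrros was closest to Gamt (0.93), Rab1a (0.90) and Mfsd1 (0.90), Tgfb1 to Magt1 (0.93), Copa (0.92) and Hdlbp (0.91), and Tgfbr2 to Sbf2 (0.95), Tmem87b (0.94) and Dnajc16 (0.94). Smad3 was closest to Sfswap (0.94), Irf2bpl (0.90) and Actr1b (0.90), Smad7 to Mfng (0.92), Bcl9l (0.90) and Pik3r1 (0.90), and Ski to Cd84 (0.94), Uhrf1bp1 (0.93) and Gm4673 (0.93). The broadly expressed pair had looser matches, Smad2 with Zbtb6 (0.85), Acbd3 (0.82) and Zfp729b (0.80), and Smad4 with Traf6 (0.85), 2410004B18Rik (0.81) and Cyth2 (0.79).

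The authors divided microglia into homeostatic microglia (HM, 31953 cells), disease-associated microglia (DAM, 901), cells in transition toward DAM (TM, 2538), interferon-response microglia (IRM, 2271), microglia with an immediate-early gene signature (IEG, 2094) and proliferating microglia (PM, 790). Since these states were drawn from the same counts, the differences below are descriptions with no test. Each is the log2 ratio of a state to HM in the same library, over 10 libraries.

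In DAM, Smad7 was below HM in 10 of 10 libraries, by -0.35 ± 0.17 (SD). It was the 1 of the 9 genes with the same sign in every library. Of 8250 genes, 3.44% were below HM in every library and 8.1% were on one side of it in every library, so 1 of 9 is near that background. Its levels in DAM ran from 68.3 CPM (WT, 9 months) to 277 (WT, 6 months). Without that lowest library the ratio was -0.35 ± 0.18, below HM in 9 of 9, and with high doublet scores removed it was -0.31, below in 9 of 10. Smad4 (-0.37 ± 0.28) and Tgfb1 (-0.19 ± 0.17) were lower in 9 of 10 libraries, and Tgfbr1 (-0.25 ± 0.24) and Ski (-0.21 ± 0.24) in 8 of 10. Tgfbr2 went the other way, with 0.11 ± 0.15 and 8 of 10 libraries higher. DAM also carried more ribosomal protein UMIs, 12.5% of all UMIs against 7.72% in HM. Without those UMIs, a scale chosen after the data were seen, Smad7 was at -0.30 ± 0.15 and below HM in 10 of 10 libraries, as 2.67% of genes were, and Tgfb1 (-0.14) was lower in 7 of 10. The choice of annotation mattered here. With the states of the authors' annotation of all CD45+ cells, Tgfb1 (-0.34), Tgfbr1 (-0.29) and Smad4 (-0.41) were also lower in 10 of 10 libraries, so 4 of 9 genes were, where 8.3% of genes were. Tgfbr2 (0.11) was lower in 0 of 10 libraries there. Smad2, Smad3 and Nrros had both signs, and the 3-month libraries held only 24 to 83 DAM each.

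TM showed the broadest difference. Of the 9 genes, 6 were below HM in 10 of 10 libraries, where 21.1% of the 8250 genes were. Tgfbr1 had a median of 1111 CPM in HM and 796 in TM (-0.52 ± 0.08), and the ranges of 967 to 1263 and 674 to 915 did not overlap. Tgfb1 was lower by -0.43 ± 0.08, Nrros by -0.42 ± 0.17, Ski by -0.35 ± 0.11, Smad4 by -0.22 ± 0.14 and Smad7 by -0.15 ± 0.07. Smad3 (-0.47 ± 0.34) and Tgfbr2 (-0.13 ± 0.09) were lower in 9 of 10. TM also carried more ribosomal protein UMIs, at 12.7%, and the median gene stood at -0.15. With those UMIs left out the median gene stood at -0.08 and 11.9% of genes were lower in every library. Tgfbr1 (-0.44), Tgfb1 (-0.35), Nrros (-0.34) and Ski (-0.27) were still lower in 10 of 10 libraries, Smad7 (-0.07) in 9 and Smad4 (-0.14) in 8. With the states of the annotation of all CD45+ cells, Smad4 (-0.08) was lower in 6 of 10 and Smad7 (-0.16) in 8. Tgfbr2 (-0.13) and Smad2 (-0.24) were lower in 10 of 10 there, and Tgfb1, Tgfbr1, Nrros and Ski remained so. The share of all genes is not given for TM under that annotation.

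In IRM, Tgfb1 (-0.34 ± 0.08) and Tgfbr1 (-0.26 ± 0.06) were below HM in 10 of 10 libraries, as 5.14% of genes were, and the other 7 genes had both signs. Nrros was the one gene above HM in a state in every library. In IEG microglia the ratio was 0.34 ± 0.17, with a median of 169 CPM (144 to 207) against 129.7 in HM. Of all genes, 10.5% were above HM in every library there, so 1 of 9 is near that background. No gene kept one sign in PM.

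**Figure D2:**
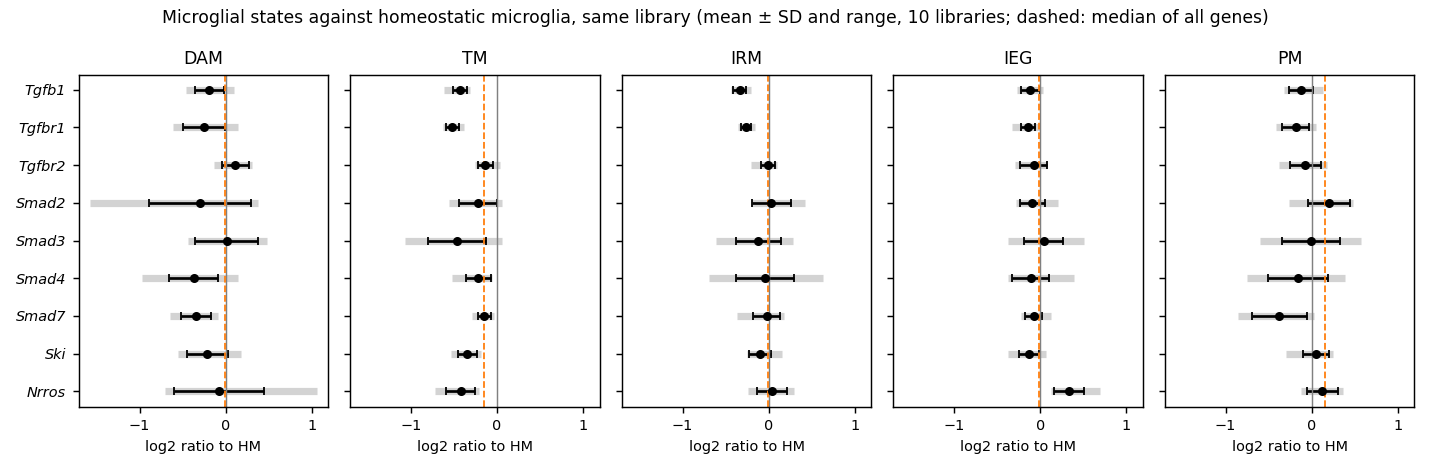
Log2 ratio of each state to HM in the same library for the 9 genes, with the mean (point), SD (bar) and range (grey) over 10 libraries and the median of all 8250 genes (dashed). Tgfbr1 and Tgfb1 lie left of 0 throughout their range in TM and IRM, and Nrros lies right of 0 in IEG.

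Within microglia as a whole, the 9 genes were compared between conditions on UMIs summed per library, with edgeR's quasi-likelihood test over all genes and Benjamini-Hochberg adjustment. Calls required a log2 fold change beyond 1 and an adjusted p below 0.05, and counts by that p alone are also given. In such sums, fewer cells of a state and less RNA per cell cannot be told apart.

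For loss of Nlrp3, none of the 9 genes passed, where 0.0242% of 12383 genes were called and 0.0404% passed the adjusted p alone, and 0 of the 9 reached an unadjusted p of 0.05, as against 574 of all genes, with 6 called by DESeq2. The log2 fold changes in the 5 pairs of the same age and background ran from -0.07 ± 0.04 (SE) for Tgfbr1 to 0.07 ± 0.06 for Smad3, with Smad7 set apart at 0.24 ± 0.24. The lowest adjusted p was 0.90. Tgfbr1 was 1208 CPM in Nlrp3KO and 1225 in WT at 3 months, 1020.3 and 1017 at 6 months, and 1010.2 and 1057 at 9 months. In the APP/PS1 background it was 1134 against 1209.7 at 3 months and 866 against 1009 at 9 months. It was lower without Nlrp3 in 4 of 5 pairs. The Smad7 difference came with 1 pair, WT of 9 months with 87.7 CPM against 265 in Nlrp3KO, and without that pair it was -0.06 ± 0.05. The effect of Nlrp3 loss in APP/PS1 mice minus that in non-diseased mice had an adjusted p of 1 for each of the 9 genes in edgeR, with 0 genes called in all, 310 at an unadjusted p under 0.05, and 1 called by DESeq2.

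The amyloid transgenes were compared in 4 pairs of the same age and Nlrp3 genotype. Again none of the 9 genes passed, where 0.0407% of 12282 genes were called and 0.057% passed the adjusted p alone. Nrros was nearest, with 0.13 ± 0.05 (SE), an unadjusted p of 0.0377 and an adjusted p of 0.65 in edgeR. It was 133 CPM in APP/PS1 and 122 in WT at 3 months, 146 and 127 in the Nlrp3KO pair, 140.1 and 121 at 9 months, and 126 and 132 in the Nlrp3KO pair of 9 months. It was thus higher in 3 of 4 pairs. Tgfbr2 was higher in 4 of 4 pairs by 0.08 ± 0.05, and Tgfbr1 and Ski lower in 4 of 4 by -0.08 ± 0.05 and -0.08 ± 0.04, each with an adjusted p of 0.70 or more. Smad7 had 0.37 ± 0.28, and -0.03 ± 0.06 without the pair of 9-month mice with intact Nlrp3. The DAM, in which Smad7 and Tgfb1 were lower, numbered 253 of 2167 microglia in APP/PS1 and 55 of 2353 in WT at 9 months, and 202 of 1755 and 102 of 2690 in the same groups without Nlrp3. Their part in these values was not tested. Within HM alone none of the 9 genes passed, where 0 of all 11887 genes tested did.

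**Figure D3:**
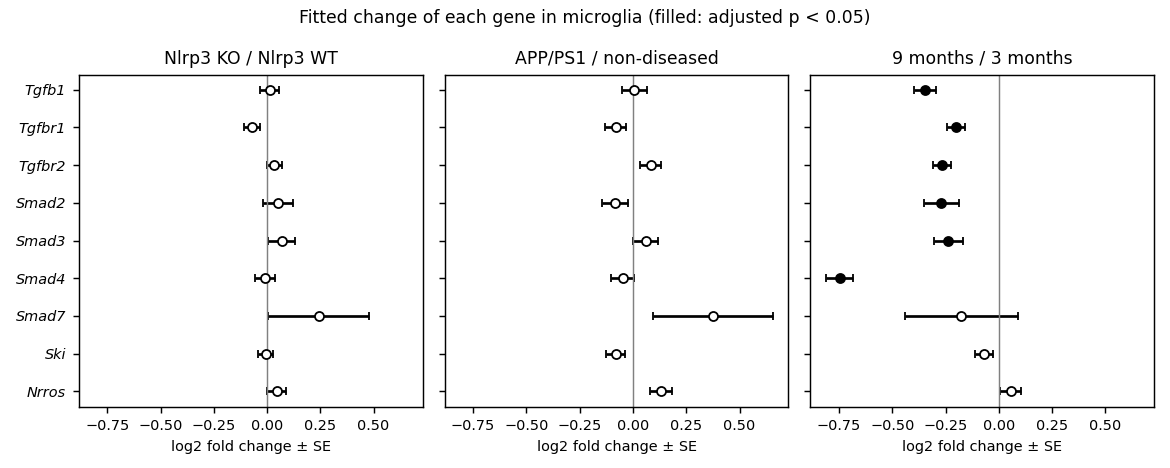
Log2 fold change in microglia with its SE for each gene, for Nlrp3 loss, the amyloid transgenes and 9 against 3 months, with filled points at an adjusted p under 0.05. Filled points appear in the age comparison alone, from -0.20 for Tgfbr1 to -0.75 for Smad4, and the wide bars of Smad7 come with 1 library.

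Between ages some of these genes changed. Of the 9, 6 were lower at 9 than at 3 months at an adjusted p under 0.05 and none was higher, where 13.1% of 12383 genes were lower and 27.4% passed in either direction. None of the 6 had a log2 fold change beyond 1, which 4.04% of genes had together with the adjusted p. The median of the 9 genes was -0.24 on the log2 scale, against 0.00 over all genes tested. Because each batch held 1 age, batch and age cannot be told apart in any of these values. The median gene was lower by 0.08 in log2 CPM, the scale of the levels below, at 9 than at 3 months.

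Smad4 changed most of the 9. It was 65.2, 60.9, 66.8 and 63.9 CPM in WT, Nlrp3KO, APP/PS1 and Nlrp3KO APP/PS1 microglia of 3 months, 59.4 and 57.8 in WT and Nlrp3KO of 6 months, and 38.0, 39.9, 32.4 and 34.7 in the 4 groups of 9 months. The 9-month libraries were all far below the others, while the 6-month libraries stood near those of 3 months. The log2 fold change was -0.75 ± 0.06 (SE), with an adjusted p of 0.000434 in edgeR, and it was lower in 4 of 4 genotypes.

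Tgfb1 was lower at each later age, although only 3 and 9 months were tested. Its levels at 3 months were 452, 430.5, 425 and 447 CPM in the same order, 365 and 376 at 6 months, and 316, 339, 342 and 312 at 9 months, so that no 2 ages overlapped. The fold change from 3 to 9 months was -0.35 ± 0.05 on the log2 scale with an adjusted p of 0.00354.

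For the receptor genes, the 6-month libraries lay within the range of the 9-month ones. Tgfbr2 was 344, 356, 363 and 366 CPM at 3 months, 278 and 282 at 6, and 275, 273, 284 and 293 at 9 months (-0.27 ± 0.04, adjusted p = 0.00476 in edgeR). Tgfbr1 averaged 1194 ± 40.7 CPM (SD, n = 4) at 3 months and 986 ± 82.9 (n = 4) at 9 months, with 1017 and 1020.3 at 6 months. Its fold change was -0.20 ± 0.04 with an adjusted p of 0.0117. The call on Tgfbr1 was lost without the Nlrp3KO libraries (adjusted p = 0.0747 in edgeR) and without the WT libraries (adjusted p = 0.0766), and those on Tgfb1, Tgfbr2 and Smad4 were kept whichever genotype was left out.

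The receptor Smads gave less firm changes. Smad2 was 46.1, 45.4, 49.0 and 43.4 CPM at 3 months, 45.4 and 46.7 at 6, and 34.9, 43.6, 31.8 and 34.5 at 9 months, and the Nlrp3KO library of 9 months reached the range of 3 months. Smad3 was 42.7, 44.5, 46.2 and 43.1 CPM at 3 months, 37.3 and 37.5 at 6, and 30.9, 38.8, 35.6 and 36.8 at 9 months, with no overlap between 3 and 9 months. The fold changes were -0.27 ± 0.08 (adjusted p = 0.0415) for Smad2 and -0.24 ± 0.07 (adjusted p = 0.0341) for Smad3 in edgeR. Neither passed with DESeq2 (adjusted p = 0.097 and 0.147) or without the WT library of 9 months (0.0787 and 0.0626), and leaving out the APP/PS1 or the WT genotype also lost both. The Smad3 call was further lost without the Nlrp3KO genotype (0.0847), and the Smad2 call without the Nlrp3KO APP/PS1 genotype (0.0813), within HM alone (0.0536), with no filter on low counts (0.0586) and without doublet scores over 0.5 (0.0517).

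The remaining 3 genes did not pass. Ski was 242 to 253 CPM at 3 months and 209 to 238 at 9 months, with a fold change of -0.07 ± 0.04. These CPM ranges did not overlap, which held for 6 of the 9 genes with 9 months lower, and for 32.6% of 8250 genes. Nrros was 122 to 146 CPM at 3 months and 121 to 140.1 at 9 months (0.05 ± 0.05). Smad7 was 239 to 248 CPM at 3 months, 295 and 296 at 6 months, and 265, 284 and 229.7 in the Nlrp3KO, APP/PS1 and Nlrp3KO APP/PS1 libraries of 9 months, against 87.7 in WT. Its fold change was -0.18 ± 0.26 with that library and 0.17 ± 0.06 without it (adjusted p = 0.0664 in edgeR). Inside that library Smad7 was low in each state, from 46.5 CPM in PM to 92.7 in HM, where the other libraries gave 238 to 309 in HM, and in the non-microglial cells it was 17.5 CPM against 57.9 to 118 in the other 9 libraries.

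**Figure D4:**
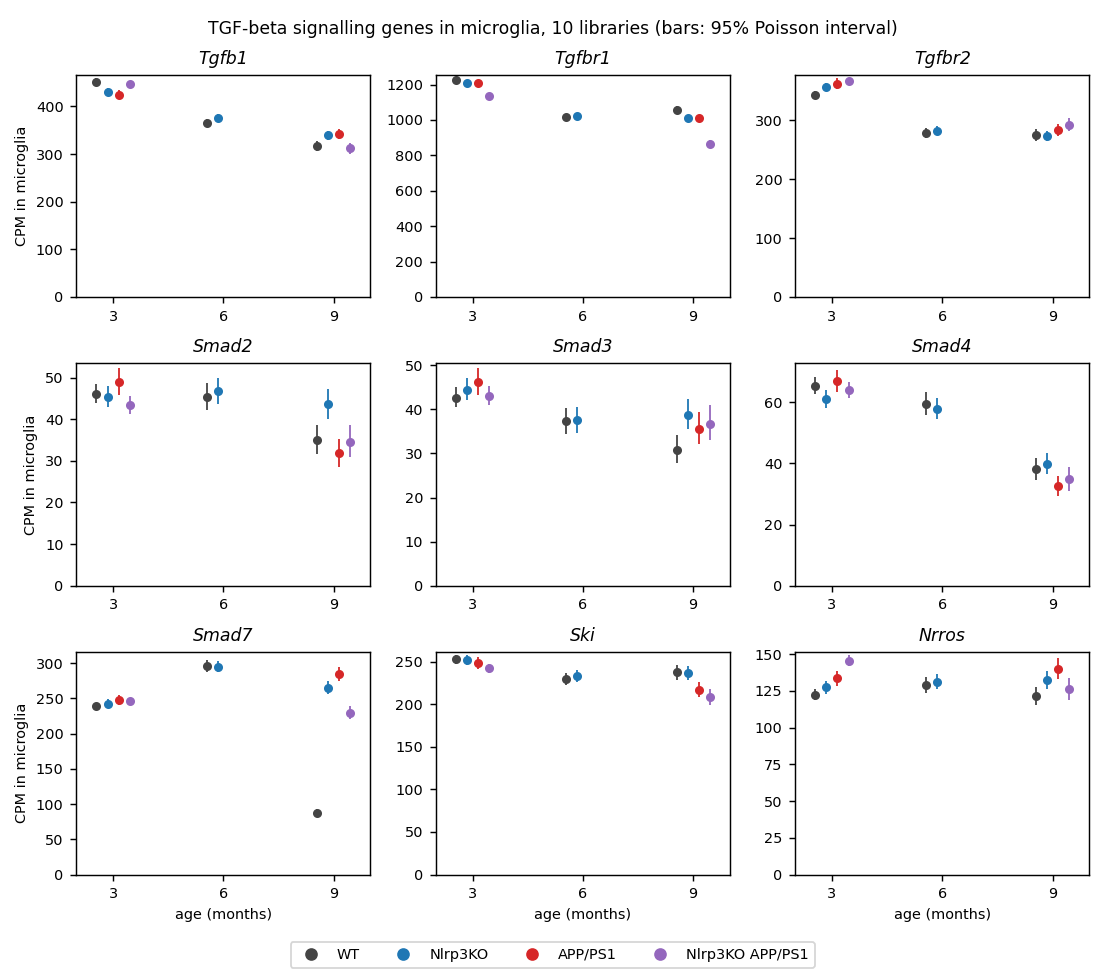
CPM in microglia of each gene in each of the 10 libraries by age, coloured by genotype, with 95% Poisson intervals. Smad4 sits at 57.8 to 66.8 CPM up to 6 months and at 32.4 to 39.9 at 9 months in every genotype, and Smad7 at 87.7 in the WT library of 9 months alone.

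Other measures moved with age as well. The median mitochondrial share of UMIs per microglial cell was 2.35% to 3.16% at 3 months and 3.39% to 3.67% at 9 months, and the ribosomal share 7.56% to 8.15% and 9.17% to 10.3%. Marker sums in microglia moved too. Those of ILC2 were 57.6 to 68.7 CPM at 3 months and 32.9 to 44.2 at 9 months, those of B cells 43.4 to 52.3 and 32.6 to 38.7, and those of DAM 611 to 1059 and 828.7 to 4013. The part of these measures in the changes was not tested. Within HM alone, Smad4 (-0.72), Tgfb1 (-0.30), Tgfbr2 (-0.30), Tgfbr1 (-0.17) and Smad3 (-0.23) passed at adjusted p-values of 0.000439 to 0.0264 in edgeR. Outside microglia Smad4 was read over summed cells. Over summed T cells it was 55.8 CPM at 3 months (95% Poisson interval 44.0 to 69.9, 215 cells) and 30.5 at 9 months (26.1 to 35.3, 928 cells), over B cells 51.1 (41.2 to 62.6) and 17.4 (7.95 to 33.0), and over NK cells 49.3 (39.1 to 61.2) and 30.0 (19.8 to 43.6). In border macrophages, here BAM, BAM Lyve1 and proliferating BAM summed, Smad4 was 40.8 (34.4 to 48.0) and 30.7 CPM (23.4 to 39.5). The libraries of the 2 ages did not overlap in T cells (42.6 to 60.2 and up to 37.9 CPM) and did in border macrophages (35.1 to 53.1 and 20.8 to 39.7). Only 8 libraries held 20 B cells and 7 held 20 NK cells, with 88 and 143 cells in all at 9 months, so for these types ranges over libraries are not given. Tgfb1 was also lower at 9 months in T cells (113 and 81.5 CPM) and B cells (264 and 155), and Tgfbr1 in NK cells (151 and 70.0), T cells (38.9 and 28.0) and B cells (141 and 83.1), where it was near background. All 9 genes had lower summed values at 9 months in T, B and NK cells, the smallest change being -0.004 on the log2 scale for Smad7 in T cells. Ski (-0.14, -1.19 and -0.52) and Nrros (-0.03, -0.57 and -0.90), which did not pass in microglia, were among them. How far all genes shifted in these cells, and what share of them did not overlap between ages, was not tested. The counts and the lack of overlap of Smad4 in T cells therefore have no background to be read against. In border macrophages Tgfbr1 was 255 CPM (239 to 272) at 3 months and 286 (263 to 311) at 9. Its libraries overlapped, with 202 to 317 CPM at 3 months and 265 to 301 at 9. The mix of BAM and BAM Lyve1 at each age was not taken into account.

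The rest of the pathway was read from lists of named genes, 72 besides the 9, of which 51 were abundant enough to test. None passed for Nlrp3 loss, the amyloid transgenes or their interaction. Between 9 and 3 months, 20 of the 51 were lower and 4 higher at an adjusted p under 0.05, where 13.1% of all genes were lower and 14.3% higher. Among the ligands and the proteins that store and release them, 4 of 9 tested were lower, and all 4 were integrin subunits, Itgav (-0.45 ± 0.05), Itgb5 (-0.45 ± 0.09), Itgb3 (-0.33 ± 0.08) and Itgb1 (-0.16 ± 0.04). Integrins of the αv group pull latent TGF-β open. Of the 9 other receptors, 4 were lower, the activin receptors Acvr2b (-0.80 ± 0.09) and Acvr1 (-0.59 ± 0.07) and the BMP receptors Bmpr1a (-0.25 ± 0.07) and Bmpr2 (-0.18 ± 0.05).

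Of the list genes that passed, Pmepa1 had the lowest fold change. Its product is an inhibitor of TGF-β signalling that is itself induced by it. Pmepa1, of the list of Smads and regulators, was 1136 to 1299 CPM in the 3-month libraries, 1062 and 1210.4 at 6 months, and 496 to 631 at 9 months (-1.07 ± 0.07, adjusted p = 0.000132 in edgeR). Of 25 tested in that list 12 were lower, among them the coactivator Ep300 (-0.57 ± 0.06), the repressor Tgif2 (-0.59 ± 0.12), the ubiquitin ligases Trim33 (-0.51 ± 0.12), Smurf1 (-0.39 ± 0.06) and Smurf2 (-0.37 ± 0.05) and the phosphatase Ppm1a (-0.47 ± 0.12). Fkbp1a, whose product binds the type I receptor, was the one that rose (0.18 ± 0.05). Of the common transcriptional targets of the pathway, 3 of 8 tested were higher, none was lower and 5 did not pass, where 14.3% of all genes were higher. Pmepa1 is also induced by the pathway but was placed among the regulators, and with it the targets would have 1 that was lower. Those that rose were Cdkn1a, a cell cycle inhibitor (1.40 ± 0.15, adjusted p = 0.00116 in edgeR), Klf10 (0.62 ± 0.16) and Tgfbi (0.43 ± 0.09), each of which also responds to other signals. Cdkn1a was 15.4 to 22.4 CPM at 3 months and 31.1 to 61.0 at 9 months, while the lowest 9-month library of Klf10 (5.29 CPM) lay below its 3-month range (5.47 to 6.01). The medians were -0.33 for ligands and release, -0.18 for receptors, -0.20 for Smads and regulators and 0.47 for targets, against 0.00 over all genes.

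Among microglial genes known to depend on TGF-β, 5 of 15 tested passed, against 27.4% of all genes. Of the 15, 4 were lower at 9 months, against 13.1% of all genes. These were the purinergic receptors P2ry12 (-0.37 ± 0.05) and P2ry13 (-0.26 ± 0.06), the transcription factor gene Sall1 (-0.31 ± 0.04) and Pros1 (-0.18 ± 0.04), and 1, Siglech, was higher (0.18 ± 0.04). Levels of P2ry12 ran from 3438 to 3596 CPM at 3 months, 2764 and 2832 at 6 months, and 2333 to 2793 at 9 months. The other 10 did not pass, with values of -0.03 ± 0.05 for Tmem119 and 0.02 ± 0.05 for Sparc among them. The list's median was -0.04. In the amyloid comparison its lowest adjusted p was 0.65 and in the Nlrp3 comparison 0.90, both in edgeR.

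**Figure D5:**
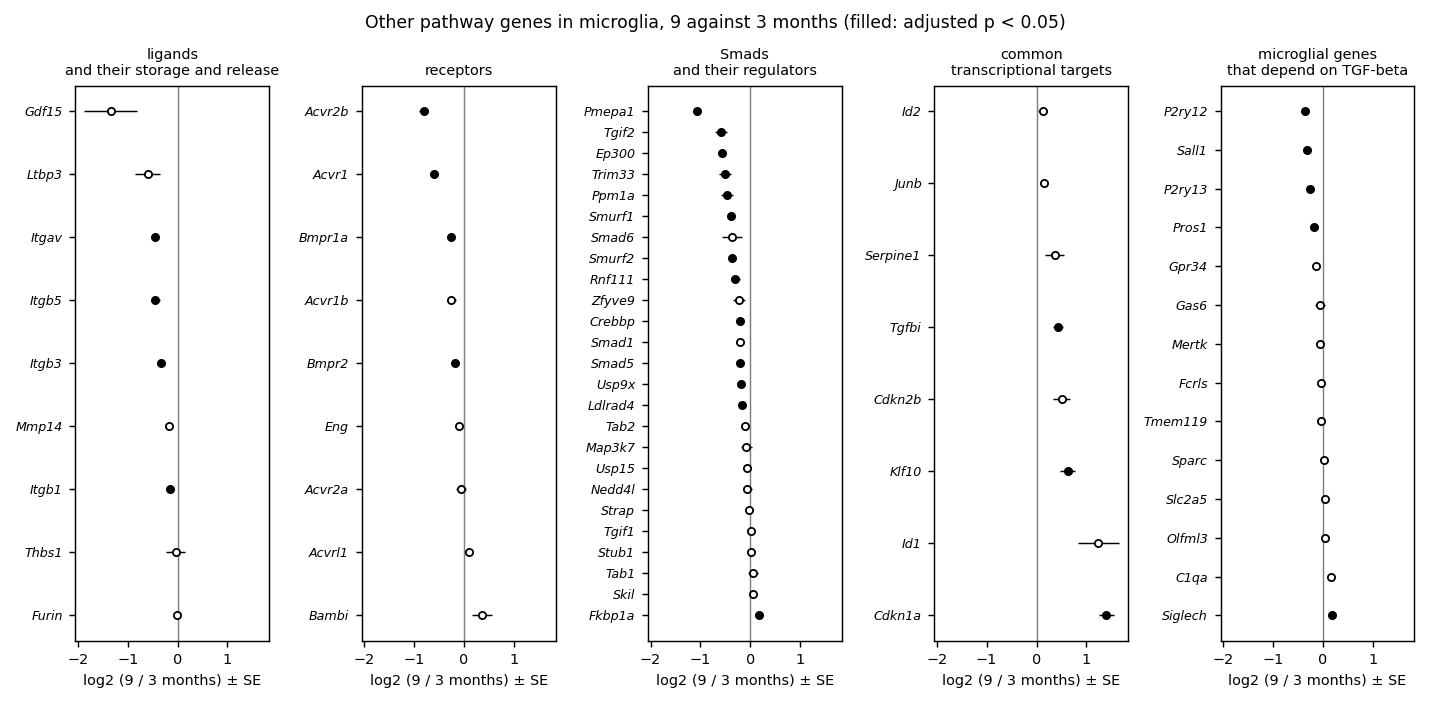
Log2 fold change with SE between 9 and 3 months in microglia for the other genes of the pathway, by list (1 gene that did not pass is not shown), with filled points at an adjusted p under 0.05. Integrin subunits, activin receptors and Pmepa1 (-1.07) lie left of 0, and the targets Cdkn1a (1.40), Klf10 and Tgfbi right of it.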

How the data were processed

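Per the labels and the methods of the study, the authors sequenced 10x Genomics 3′ libraries and made the deposited counts with Cell Ranger and STAR against mm10, filtering outlier cells; strand and annotation settings were not given in the sources used here. The deposited counts are UMIs per gene and cell. The authors also deposited cell annotations with a doublet score, mitochondrial UMIs in percent and ribosomal UMIs as a fraction per cell. Library names tied cells to samples. There were 2 names, APP/PS1 and Nlrp3KO APP/PS1 at 6 months, that matched no label, and their 6897 cells were not used. Neither the labels nor the methods of the study list an APP/PS1 group of that age. No doublets were removed in the main results.

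UMIs of all microglia were summed per library (10 libraries, 9357431 to 35107144 UMIs) and tested with edgeR 4.0.16 in R 4.3.3 (filterByExpr, TMM, quasi-likelihood F test, Benjamini-Hochberg over all genes), because cells are not replicates. The Nlrp3 fit held a term for each pair of the same age and background (5 pairs), the amyloid fit one for each pair matched in age and Nlrp3 status (4 pairs, 3 and 9 months), and the age fit used genotype and age as terms. One library per group means that spread was taken over pairs or genotypes. The fits were tested on simulated data. DESeq2 1.42.0, its size factors, no filter, HM cells alone, additive covariates and leaving out each pair or genotype were alternatives. Fits without doublet scores over 0.5 and without the WT library of 9 months, and the scale without ribosomal protein UMIs, were added after seeing the data.

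Ratios of states to HM and of cell types to microglia used a prior count of 2, and libraries needed 20 cells of a type or state. The named genes are the 9 genes, list genes at an adjusted p under 0.05 or with many microglial UMIs, and the 3 genes of most similar profile. Of the list genes 1 (Ccn2) was found under an older symbol. The genes and lists were chosen with earlier results of these data known. One of the named genes is not reported here.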

Additional observations from a re-analysis of the deposited data

Results flagged for a closer look

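Smad7 in the WT library of 9 months, at 87.7 CPM, was far from the other Nlrp3 WT libraries and from the other non-diseased ones, which lay between 239 and 296 CPM in both comparisons. Smad2 in the Nlrp3KO APP/PS1 library of 9 months, at 34.5 CPM, was far from the other Nlrp3KO libraries (43.4 to 46.7). In the WT library of 9 months Smad2 was 34.9 CPM, far from the other non-diseased libraries (43.6 to 46.7). Over 54 groups of values tested in this way, chance flags about 1 in 20. The groups of Smad2 mixed ages. At 9 months Smad2 was 31.8 CPM in APP/PS1 and 43.6 in Nlrp3KO, and both flagged values lay between these. For Smad4, both APP/PS1 libraries of 3 months were above their non-diseased partners, by a mean of 0.053 on the log2 scale, and both of 9 months were below theirs, by a mean of -0.21, a difference that was not tested.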

How the results depend on the processing

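Each group had 1 library, and microglial UMI totals were lower at 9 months (9357431 to 12914104 per library) than at 3 months (19140253 to 35107144), so counting error was larger there, most of all for the least abundant genes, Smad2, Smad3 and Smad4. The 0 of 9 for Nlrp3 loss and for amyloid held under every alternative run. The 6 of 9 for age became 4 with DESeq2, 5 with HM alone, no filter or no doublets, 4 without the WT library of 9 months, and 3 to 5 with one genotype left out (3 without WT).

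Over all genes, calls for Nlrp3 loss went from 3 to 5 at the adjusted p alone and 6 with DESeq2, and were 2 to 8 with one pair left out, 8 without the 9-month non-diseased pair. Calls for amyloid went from 5 to 22 with DESeq2 and 0 in HM alone, and were 0 to 11 with one pair left out, 0 without either Nlrp3KO pair and 11 without the 9-month pair with intact Nlrp3. Calls for age went from 500 to 3391 at the adjusted p alone and 248 in HM alone, and were 320.0 to 479 with one genotype left out, 320.0 without Nlrp3KO APP/PS1. The interaction had 1 with DESeq2.

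Some directions changed, mostly of values within 1 SE of 0. For Nlrp3 loss, Tgfb1 (0.01) was -0.0025 in HM alone, and Ski (-0.01) was 0.0019 without doublet scores over 0.5. With one pair left out, Tgfb1 ran from -0.011 to 0.035, Smad2 (0.05) from -0.018 to 0.11, Smad4 (-0.01) from -0.040 to 0.015 and Smad7 (0.24) from -0.063 to 0.37. For amyloid, Tgfb1 (0.01) was -0.0066 without doublet scores over 0.5 and from -0.037 to 0.047 with one pair left out, and Smad7 (0.37) from -0.029 to 0.55. In the age comparison Smad7 was 0.17 without the WT library of 9 months and from -0.34 to 0.17 with one genotype left out. The negative Smad7 values for Nlrp3 loss and amyloid, and its positive ones for age, were those without the WT library of 9 months. The causes were not tested. No paired analysis by replicate number was possible because each group has 1 library. The pairs by age and genotype were already in the Nlrp3 and amyloid fits, and additive terms in their place left 0 of 9 genes passing. Against HM, all 54 values of the 9 genes in DAM under 6 alternatives and 53 of 54 in TM moved by less than 1 SD.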
